A study of Harpegnathos saltator with 27 samples.

Results

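Odorant receptor (Or) genes HsOr203 to HsOr300 of the jumping ant Harpegnathos saltator were followed through pupal life in antennae with and without the co-receptor Orco. The members were all gene ids in the range named, whatever the suffix, leaving out HsOr247, HsOr263 and HsOr271. This gave 97 genes of the 14407 counted, and of 377 Or genes counted with HsOrco. HsOr257 was annotated as 4 copies, and no id numbered HsOr259 was analysed here. RNA of antennae, selected for polyA, came from pupae of the CRISPR/Cas9-made orco mutant line (labelled orco_mutant, zygosity not stated for these libraries) and from WT pupae (labelled wt) at D10, D15, D20, and D25, the days after pupal formation (APF). The mutant groups held 3 libraries at each stage. WT had 3 libraries at D10 and 4 at each later stage, so that 12 mutant and 15 WT libraries were compared. No agent or second allele was named for either genotype, and the labels give neither the sex of the pupae nor how many animals a library pooled, so each p-value measures the spread between these libraries, which may be technical.

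Insect Ors are odor-gated ion channels made of a tuning receptor, which sets the odor response, and Orco, the co-receptor shared by nearly all olfactory receptor neurons (ORNs). In ants the Or family has expanded in tandem arrays, rows of neighbouring gene copies on a chromosome, and an ORN usually expresses Orco together with few tuning receptors. In Drosophila, Orco also takes part in carrying the receptor complex to the dendrite. All 97 members are tuning receptors, and only their numbering and scaffold were used to separate them here. The study also marks a pheromone-sensing subfamily on an Or phylogeny and describes the cell types in which Or loci are expressed, but neither was used. In the study's list of receptor genes they lie on 18 assembly scaffolds, and neighbouring numbers mostly share a scaffold. The longest stretch on 1 scaffold was HsOr273 to HsOr300, with 28 members.

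The libraries held 3454610 to 52275933 gene counts (median 22719131). The shallowest libraries were mutant D10 replicates 3 and 2, with 3454610 and 5205684 counts, and these also had 24.8 and 33.2% of reads unmapped, against 4.85% in mutant D10 replicate 1. Both were sequenced in batch 2, which held 3 libraries, all mutant (the other was mutant D15 replicate 1). HsOrco, the mutated gene, still gave reads in mutants, with stage means (D10 to D25) of 7706, 19209, 1022, and 355 normalized counts, against 3465, 8689, 2593, and 3776 in WT, so that its RNA does not check the labels. A normalized count is the count divided by the size factor of its library, and it depends on gene length, so levels were compared between libraries and not between genes. With unstranded libraries (49.9 to 50.7% of strand-assigned counts on the sense strand), reads from an overlapping antisense gene would be included. Bulk RNA cannot tell fewer ORNs of a type from less receptor RNA in each of them, here or in any result that follows.

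In WT, the members came on between D10 and D15 and then stayed at a similar summed level. The sum over all 97 members was 663, 902, and 887 normalized counts in the D10 libraries. The D15 libraries had 9684, 6056, 8845, and 4487, the D20 libraries 7040.2, 5628, 7707, and 7435, and the D25 libraries 7387, 5019, 5797, and 8074. Every later library thus stood above every D10 library, and the mean sum at D10 was 11.2% of that at D15. Of the 97 members, 90 had a mean count of at least 10 and were tested. Between D15 and D10, 80 of 90 were called higher and 0 lower (edgeR quasi-likelihood test, adjusted p under 0.05), where 15.2% of all genes tested were called higher and 10.6% lower. The median log2 fold change was 4.57 as fitted and 3.94 with the members near 0 held at a floor of 3 counts per library, against 0.03 over all genes tested. None of the 90 was called between D20 and D15 (background 5.57% higher and 6.01% lower), with 4 members at an unadjusted p under 0.05 and 3 called by DESeq2. Likewise 0 were called between D25 and D20, where 0 had an unadjusted p under 0.05 and DESeq2 called 0, beside a background of 0.00902% higher and 0% lower.

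**Figure D1:**
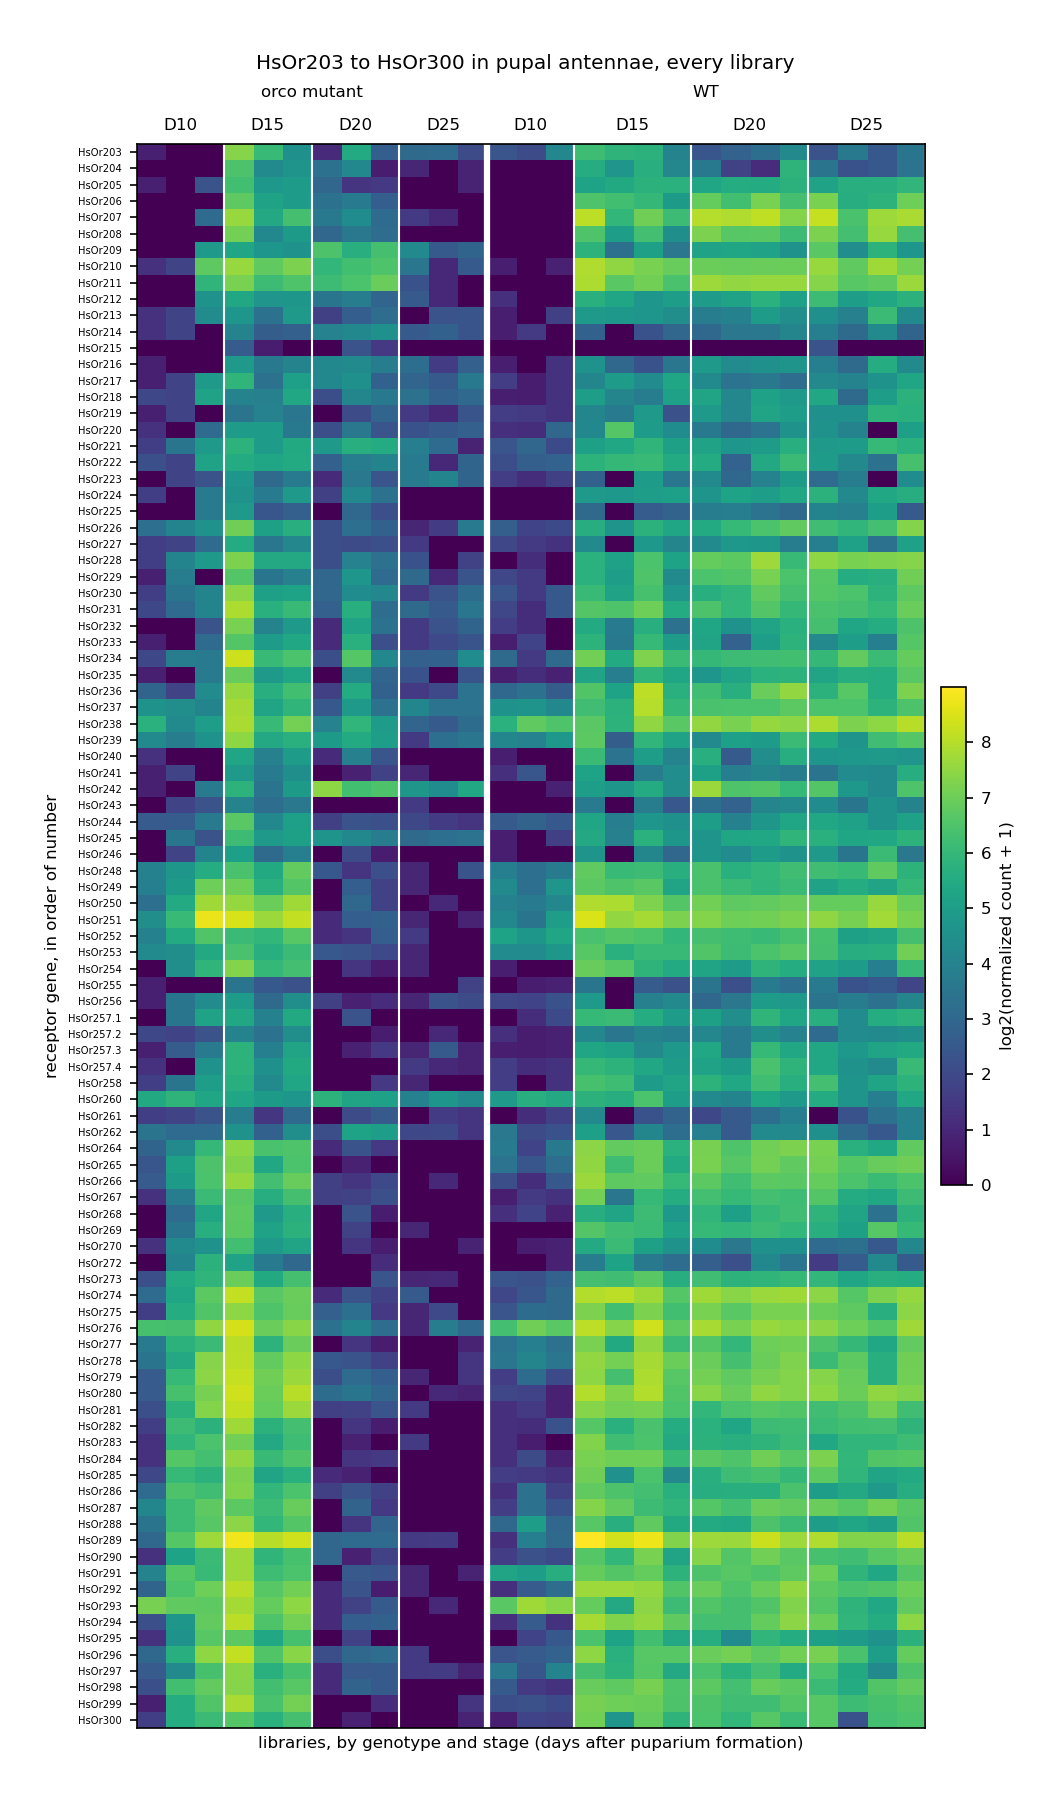
Level of each of the 97 members, ordered by gene number down the page, in each of the 27 libraries, with the 12 mutant libraries left of the 15 WT libraries and each genotype ordered from D10 to D25. Color gives log2(normalized count + 1), and most rows are dark at WT D10, bright from WT D15 onward, and dark again in mutants at D20 and D25.

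Onset was described as the first WT stage with a mean of at least 25% of the member's highest WT mean and more than 3 counts in every library. By this measure 77 members came on at D15, 9 at D20, and 8 were already on at D10, while HsOr215, HsOr255, and HsOr261 met it at no stage. The D20 class rested on the count rule. HsOr214, HsOr223, HsOr225, HsOr227, HsOr241, HsOr243, HsOr246, and HsOr256 had 0 counts in WT D15 replicate 2, and HsOr216 had 3 in WT D15 replicate 3. HsOr227, for example, had 22, 0, 21, and 43 counts in the WT D15 libraries. A later onset is thus not shown for these members, and the next 2 measures kept the same count rule. With 10% in place of 25% the numbers were 68 at D15, 8 at D20, and 18 at D10, and with 50% they were 76, 16, and 2. The highest WT mean was at D15 for 45 members, at D20 for 22, at D25 for 29, and at D10 for HsOr293 alone.

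HsOr289 shows the usual onset. It had 509.6, 334, 431, and 154 normalized counts in the WT D15 libraries, against 1.39, 13.7, and 7.60 at WT D10 (log2 fold change 5.48 ± 0.83 SE, adjusted p = 9.8e-05). HsOr274 and HsOr280, 2 other receptors of the scaffold with 28 members, followed the same course. HsOr274 had 248.4, 271.04, 209, and 96.6 at WT D15, against 2.78, 4.36, and 7.60 at WT D10 (log2 fold change 5.32 ± 0.82 SE, adjusted p = 0.000117). For HsOr280 the WT D15 libraries held 248.4, 154, 248.4, and 93.3 and the WT D10 libraries 2.78, 2.49, and 0.760 (log2 fold change 6.39 ± 0.81 SE, adjusted p = 2.76e-05). The stages did not overlap for any of these 3 receptors. HsOr251, of the row HsOr248 to HsOr254, had 358, 185, 219, and 148 at WT D15, against 17.4, 9.96, and 31.1 at WT D10 (log2 fold change 3.49 ± 0.70 SE, adjusted p = 0.00101). Its D10 level was low but above 0 in each library.

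Some members had no reads at WT D10. All 3 WT D10 libraries were at 0 for 12 of the 97 members, and 41 members had at most 3 counts in each. HsOr211 was among these 12, and its WT D15 level was at least 66.9-fold higher than the D10 floor, while HsOr207 was at least 64.9-fold higher and HsOr208 at least 26.8-fold higher. The row HsOr203 to HsOr208 as a whole stood at 2.07% of its D15 sum in WT at D10, and HsOr210 to HsOr213 at 0.520%. These floors, and the counting intervals given further on, cover counting error only.

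The 8 members already on at D10 were HsOr238, HsOr239, HsOr252, HsOr260, HsOr262, HsOr276, HsOr291, and HsOr293, and none of them was called between D15 and D10 in WT. HsOr276 had 83.1, 80.6, and 182.3 normalized counts in mutants and 78.6, 130.0, and 103 in WT at D10. HsOr238 had 52.0, 18.2, and 31.0 in mutants and 52.9, 109.5, and 90.4 in WT at that stage. The genotypes overlapped for HsOr276, whereas for HsOr238 every mutant library was below every WT library, a difference that was not called (log2 fold change -1.28 ± 0.50 SE, adjusted p = 0.611). HsOr293, chosen after its values were seen, had 142, 109, and 109 in mutants and 103, 210.3, and 166 in WT. It sits among receptors of the same scaffold that came on at D15. HsOr223 and HsOr256 were the only other tested members not called higher at WT D15 than at WT D10. Both reached the onset measure at D20, with 0 counts in WT D15 replicate 2.

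At D15, mutant and WT antennae held similar amounts of the members. The sum over all members was 12687, 4690.1, and 7052 normalized counts in mutants and 9684, 6056, 8845, and 4487 in WT. The mutant mean was 112% of the WT mean and the libraries overlapped. At D15, 0 of 90 members were called in either direction (background 0% higher and 0.00902% lower), with 1 at an unadjusted p under 0.05 and 0 called by DESeq2, and the median log2 fold change was 0.07. HsOr289 had 446, 258.1, and 323 in mutants and 509.6, 334, 431, and 154 in WT. For HsOr207 the values were 193, 42.4, and 80.4 in mutants and 277, 60.6, 130.6, and 71.5 in WT. In both genes the lowest and the highest WT libraries differed by more than the genotype means did.

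At D10 the members were higher in 2 of the 3 mutant libraries. The sums were 698, 2438, and 5334 normalized counts in mutants, against 663, 902, and 887 in WT. Mutant replicate 1 lay within the WT range, and replicates 2 and 3, both of the shallow batch 2, lay above it. The 279 other Or genes showed this too, with sums of 7262, 11262, and 14283 in mutants, against 7030, 5467, and 7920 in WT. Of their 269 tested genes, 6 were called higher and 0 lower, with a median log2 fold change of 1.83, against 2.39 for the members. In edgeR, 11 of 90 members were called higher and 0 lower (background 0.171% higher and 0.0271% lower), 9 of them in HsOr273 to HsOr300. The 4 called members with the highest level in mutants were HsOr279, HsOr280, HsOr281, and HsOr292. HsOr279 had 5.06, 65.0, and 171 in mutants, against 2.09, 8.09, and 3.04 in WT (log2 fold change 4.03 ± 0.83 SE, adjusted p = 0.0493). HsOr280 had 5.06, 83.2, and 139.6 in mutants, against 2.78, 2.49, and 0.760 in WT (log2 fold change 5.05 ± 0.80 SE, adjusted p = 0.00907). For HsOr281 the mutant libraries held 3.61, 54.6, and 159, against 1.39, 1.87, and 0.760 in WT (log2 fold change 5.52 ± 0.92 SE, adjusted p = 0.011). In all 3 genes the excess was large in replicates 2 and 3 and within a few counts of WT in replicate 1. HsOr292 had 6.51, 85.8, and 128 in mutants, against 1.39, 4.98, and 8.36 in WT (log2 fold change 3.79 ± 0.79 SE, adjusted p = 0.0493).

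The D10 calls rested on these libraries. The count of calls was 0 without mutant replicate 3, 3 without mutant replicate 2, and 36 without mutant replicate 1, and it was 1, 1, and 0 without WT replicates 1, 2, and 3. It was also 0 with the batch 2 libraries left out and with sequencing batch as a term. Within batch 1, which held mutant replicate 1 and the 3 WT libraries, 46 of 90 members were lower in the mutant and 35 higher, with 9 at 0 in WT, and the median member stood at 89.4% of WT. The part of batch and depth in these values was not tested.

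By D20 most members were nearly lost from mutants. Their sum was 797, 1384, and 966 normalized counts in mutants, against 7040.2, 5628, 7707, and 7435 in WT, a mutant mean of 15.1% of WT with no overlap. Of 90 members, 60 were called lower and 0 higher in mutants (edgeR, background 3.99% lower and 0.749% higher), and the median log2 fold change was -4.22 as fitted and -4.07 with members near 0 held at the floor, against -0.01 over all genes. The genotypes did not overlap, with mutants lower, for 78 of the 97 members, where this held for 8.29% of all genes tested. The same direction was seen within each batch, with 84 of 90 members lower in the batch 1 mutant than in its 3 WT libraries and 84 of 90 lower in the 2 batch 3 mutants than in their WT library.

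At D25 the loss was deeper and wider. The sum was 275, 217, and 286 in mutants, against 7387, 5019, 5797, and 8074 in WT, a mutant mean of 3.95% of WT. Here 77 of 90 were called lower and 0 higher (background 11.3% lower and 5.18% higher), and for 87 of 97 members the genotypes did not overlap (12% of all genes). The median log2 fold change was -6.39 as fitted and -4.17 with the floor. In mutants, 23 members had no read in any D25 library and 61 had at most 3 counts in each. All 90 fitted log2 fold changes at D25 were below 0, and within batch 3 all 90 were lower in the 3 mutants than in the WT library. The highest of these fold changes was only -0.015, so a loss was not shown for every member. Over all D25 libraries the mutant mean was 113% of WT for HsOr223 and 82.4% for HsOr203, and the genotypes overlapped for both. Reads were few in both genotypes. HsOr223 had 13, 16, and 8 counts in mutants and 4, 10, 0, and 37 in WT. HsOr203 had 8, 8, and 4 in mutants and 2, 9, 1, and 19 in WT. These values do not show that either was kept.

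**Figure D2:**
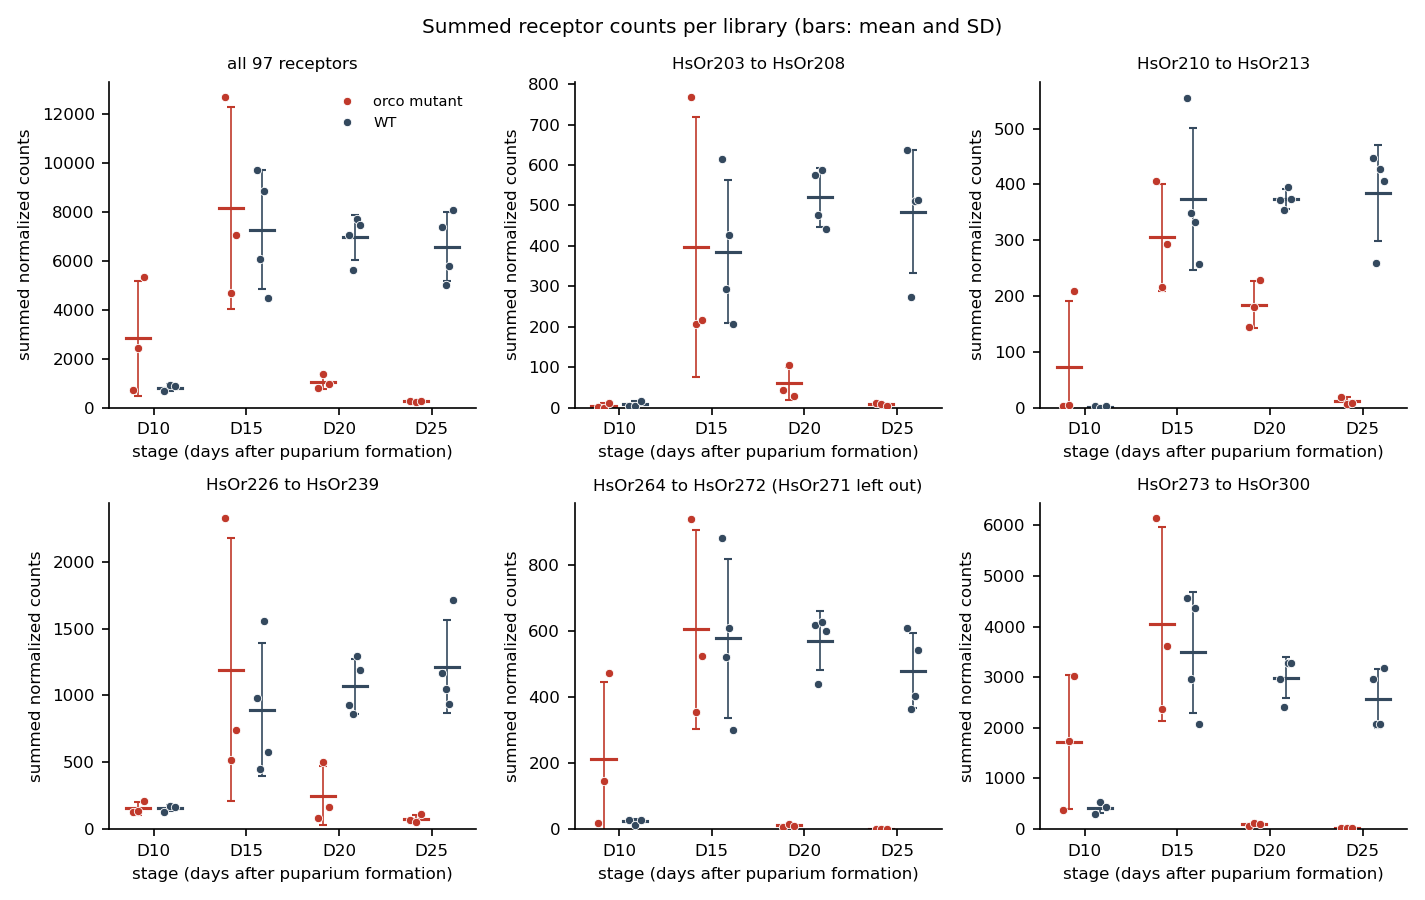
Summed normalized counts of all 97 members and of 5 rows of neighbouring members (HsOr264 to HsOr272 is without HsOr271) at D10, D15, D20, and D25, with mutant points left of WT points at each stage. Each point is 1 library and bars give the mean and SD, and mutant points fall near 0 at D20 in HsOr264 to HsOr272 and HsOr273 to HsOr300 but only at D25 in HsOr210 to HsOr213.

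The members fell within mutants from D15 onward. Between D20 and D15, 62 of 90 members were called lower in mutants at the later stage and 0 higher (background 10.8% lower and 9.35% higher), with a median log2 fold change of -4.36. Testing the difference between genotypes in this step, 53 of 90 members had a lower change in mutants and 0 a higher one (background 2.43% lower and 0.153% higher). All 28 receptors HsOr273 to HsOr300 were among these 53, as were 46 of the 48 tested members in HsOr248 to HsOr258 and HsOr264 to HsOr300, but only 7 of the 40 tested in HsOr203 to HsOr246. This split was drawn after the values were seen. With HsOr260 to HsOr262 counted in, it was 46 of the 50 tested from HsOr248 to HsOr300. Between D25 and D20, 12 members were called lower in mutants at the later stage and 0 higher (background 1.62% lower and 1.73% higher). These 12 were HsOr206, HsOr208, HsOr210, HsOr211, HsOr221, HsOr224, HsOr238, HsOr240, HsOr253, HsOr262, HsOr280, and HsOr298. The count was 3 and 5 without mutant D20 replicates 2 and 3, and 4, 2, and 2 without mutant D25 replicates 1, 2, and 3. Between D15 and D10 a rise was called for 24 of 90 in mutants (background 5.71% higher and 4.6% lower), against 80 in WT, and 22 of the 24 were in HsOr203 to HsOr246. That count was 4, 12, and 55 without mutant D10 replicates 1, 2, and 3, and 7 without mutant D15 replicate 1.

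Other genes of the antenna also differed between genotypes. Of the 4 neuron markers taken from the study, nSyb, a synaptic vesicle gene, averaged 1415 normalized counts in mutants and 5331 in WT at D20 (log2 fold change -1.94 ± 0.23 SE, adjusted p = 3.19e-05) and 2269 in mutants and 6491 in WT at D25 (log2 fold change -1.52 ± 0.22 SE, adjusted p = 0.000102). The other 3, fne, Syt1, and onecut, were not called between genotypes at any stage, no neuron marker was at 0 in any group, and the sum of the 4 was 5417 to 8832 in mutants and 9821 to 19136 in WT at D20, and 8563 to 9936 in mutants and 7222 to 22159 in WT at D25. Markers of glia, epithelium, and support cells (repo, grh, and sv) were not called either, and their sum was 3256 to 18965 in mutants and 2494 to 9925 in WT at D20. HsOrco was called lower in mutants at D25 (log2 fold change -3.42 ± 0.51 SE, adjusted p = 0.000121) and not at D20 (log2 fold change -1.38 ± 0.47 SE, adjusted p = 0.11). Of the 4 Ir co-receptors, HsIr76b was called lower in mutants at D20 (log2 fold change -1.99 ± 0.38 SE, adjusted p = 0.00171) and D25, with log2 fold changes of -1.85 at D10 (adjusted p = 0.0575) and -2.08 at D15 (adjusted p = 0.0636) that were not called, HsIr8a was called higher at D25 (log2 fold change 1.78 ± 0.36 SE, adjusted p = 0.00209), and the 2 HsIr25a genes were called at neither. The muscle gene Mhc was also higher in mutants at D25 (log2 fold change 2.71 ± 0.79 SE, adjusted p = 0.0253). The part of these differences in the receptor values was not tested.

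Late calls in the 269 other tested Or genes mostly went the same way. Of those 269 genes, 170 were called lower in mutants at D20 and 225 at D25, with 0 and 2 higher. At WT D15, 163 were called higher than at WT D10, with 14 lower. The summed level of all 279 other Or genes, untested ones included, was in WT at D10 already 50.3% of that at D15. Their mutant sum was 20.6% of WT at D20 and 24.6% at D25, against 15.1% and 3.95% for the members. The further fall of the members at D25 was thus not seen in this sum, but most single genes had a fitted fall. The median log2 fold change between genotypes of the 269 was -3.43 at D20 and -4.86 at D25. From D20 to D25 in mutants, 183 of the 269 had a fitted fold change below 0 and 82 above 0. The sum also holds HsOr247, which was left out of the members and which the study names as retained in adult mutants. Between D25 and D20 in mutants, 8 of the 269 were called higher and 16 lower, against 0 and 12 of the 90 members (background 1.73% higher and 1.62% lower). Whether the members differ from the other Or genes in these respects was not tested.

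The loss did not fall evenly along the numbering. In the upper numbers, HsOr248 to HsOr258 and HsOr264 to HsOr300, 48 of 48 tested members were called lower at D20 and 47 at D25, and the mutant sum was 2.89% of WT at D20 and 0.841% at D25. In the lower numbers, HsOr203 to HsOr246, 12 of 40 tested were called lower at D20 and 30 at D25, and the mutant sum was 33.9% of WT at D20 and 7.65% at D25. The upper numbers kept 44 to 48 D20 calls when each D20 library was left out in turn, and the lower numbers 8 to 12, against 20 of the lower numbers with the DESeq2 Wald test. At D25 the lower numbers had 23 to 33 calls with a D25 library left out. This split of the numbering was drawn after the values were seen. HsOr260 and HsOr262, which lie between the upper stretches, were called lower at neither stage. With HsOr260 to HsOr262 counted in, 48 of 50 tested members from HsOr248 to HsOr300 were called at D20 and 47 at D25, and the mutant sum was 4.40% of WT at D20 and 1.42% at D25.

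**Figure D3:**
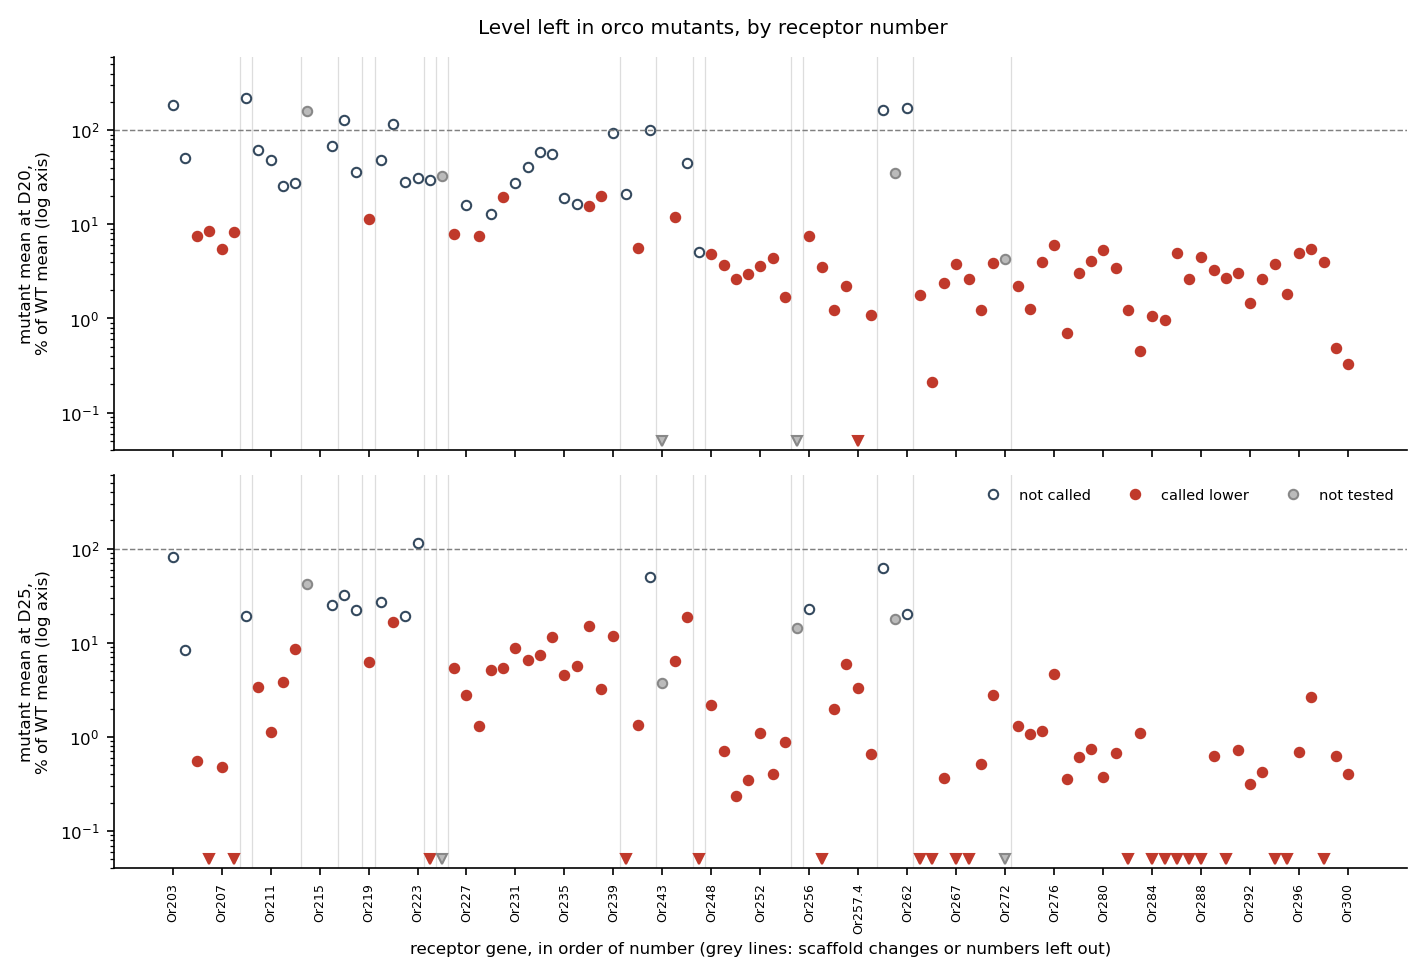
Mutant mean normalized count as a percentage of the WT mean, on a log axis, for each member in order of gene number, at D20 (upper panel) and D25 (lower panel). Red marks members called lower, open circles members not called, grey members not tested, and triangles at the lower edge a mutant mean under 0.05% of WT, and members with at most 3 counts in every WT library are left out. From HsOr248 upward every tested member but HsOr260 and HsOr262 (and HsOr256 at D25) is red in both panels, while open circles cluster below HsOr247 at D20.

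Neighbouring members often shared both onset and loss. Taking as a run 3 or more neighbouring numbers on 1 scaffold with the same onset stage and the same calls at D20 and D25, 9 runs held 54 of the 97 members, all with onset at D15. By loss alone there were 7 runs with 61 members, the longest being HsOr273 to HsOr300. Over all 97 members, 53 shared the commonest pair of classes, onset at D15 and a call at both stages, wherever they lay. Whether neighbours were more alike than these shares alone would give was not tested. Over all tested members 59 were called lower at both stages, 18 at D25 only, HsOr256 at D20 only, and 12 at neither. The call of HsOr256, chosen after its values were seen, was lower at D20 (log2 fold change -3.76 ± 1.04 SE, adjusted p = 0.0362) and missed the threshold at D25 (log2 fold change -2.16 ± 0.97 SE, adjusted p = 0.118).

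HsOr273 to HsOr300 was lost as a block. Its sum was 60.7, 117, and 94.6 in mutants, against 2969, 2420.5, 3276, and 3286 in WT at D20. At D25 it was 20.1, 22.5, and 16.3 in mutants, against 2963, 2073, 2073, and 3187 in WT. This left 3.04% of WT at D20 and 0.764% at D25, and all 28 members were called lower at both stages. Onset split it into the runs HsOr273 to HsOr275, HsOr277 to HsOr290, and HsOr294 to HsOr300, parted by HsOr276, HsOr291, and HsOr293, which were on at D10. HsOr292, with onset at D15, stood alone between HsOr291 and HsOr293. In the longest of these runs, 14 members stood at 0.457 to 5.38% of WT at D20, while HsOr273 to HsOr275 stood at 1.28 to 4.02% and HsOr294 to HsOr300 at 0.332 to 5.46%. HsOr280 had 8.02, 10.2, and 7.18 in mutants, against 168, 121, 179.6, and 161 in WT at D20 (log2 fold change -4.23 ± 0.70 SE, adjusted p = 0.000572). HsOr289 had 6.87, 7.87, and 7.78 in mutants, against 202, 201, 308, and 205 in WT at D20 (log2 fold change -4.93 ± 0.81 SE, adjusted p = 0.000551). At D25 it had 1.92, 1.96, and 0 in mutants, against 241, 155, 156, and 263.8 in WT (log2 fold change -7.26 ± 0.99 SE, adjusted p = 4.25e-05). A few reads thus remained in 2 of 3 mutant libraries at D25. HsOr274 had 1.15, 3.93, and 2.39 in mutants, against 209.5, 166, 197, and 208 in WT at D20 (log2 fold change -6.22 ± 0.88 SE, adjusted p = 0.000133). HsOr300, the last number of the block, had 0, 0.787, and 0 in mutants, against 86.4, 60.6, 99.6, and 69.1 in WT, a single read among the 3 mutants (95% counting interval of the fold 54.0 to 11889 by pooled counts). The early receptors went the same way, with 9.16, 15.7, and 8.38 for HsOr276 in mutants, against 224, 143, 194, and 178 in WT at D20 (log2 fold change -4.07 ± 0.58 SE, adjusted p = 0.000133). HsOr293, chosen after its values were seen, had 1.15, 2.36, and 4.79 in mutants, against 93.4, 81.2, 93.5, and 154 in WT (log2 fold change -5.15 ± 0.61 SE, adjusted p = 3.19e-05), so that receptors already on at D10 were lost with the rest of this block.

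HsOr264 to HsOr270, on a scaffold shared with HsOr271 and HsOr272, was the run with the lowest mutant share of the WT level at D25, a median of 0%. The summed values of this scaffold, HsOr271 left out, were 5.73, 16.5, and 10.8 in mutants, against 620.1, 439, 626, and 599.9 in WT at D20. At D25 they were 0.959, 0.980, and 0.816 in mutants, against 609.7, 365, 405, and 542 in WT, about 1 read per mutant library. HsOr265 had 0, 0.787, and 0 in mutants, against 146, 101, 137, and 109 in WT at D20, 469-fold less by pooled counts (95% counting interval 84.2 to 18537). At D25 HsOr265 was at 0 in all 3 mutants, against 139, 97.4, 119.5, and 131.4 in WT, at least 44.2-fold lower. HsOr264 was likewise at 0 in the mutants at D25, at least 31.6-fold lower than WT. HsOr272 was too low to be tested, with a D25 WT level that gives only at least 2.76-fold.

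HsOr248 to HsOr254 were all called lower at both stages. The sum was 11.45, 26.8, and 23.3 in mutants, against 671, 529, 581, and 643 in WT at D20, or 3.39% of WT, and 0.697% at D25. HsOr251 had 1.15, 5.51, and 5.99 in mutants, against 160.0, 128, 135, and 146 in WT at D20 (log2 fold change -5.01 ± 0.78 SE, adjusted p = 0.00033). By D25 it had 0.959, 0, and 0.816 in mutants, against 180.1, 139.8, 211, and 144 in WT, 278-fold less by pooled counts (95% counting interval 76.9 to 2294).

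The 4 copies of HsOr257 and the adjacent HsOr258 formed a run of 5. Reads that fit more than 1 copy equally well are not in these counts, so the level of each copy is uncertain where sequences are near-identical. HsOr257.1 had 0, 3.93, and 0 in mutants, against 34.0, 20.6, 57.8, and 37.8 in WT at D20 (log2 fold change -4.74 ± 1.18 SE, adjusted p = 0.0198). This call was lost without mutant D20 replicate 1 (adjusted p = 0.0603), mutant D20 replicate 3 (adjusted p = 0.119), or WT D20 replicate 3 (adjusted p = 0.0505), and the fold change was -8.48 without mutant D20 replicate 2, the only mutant library with reads. HsOr257.2 had 0, 0, and 0.599 in mutants, against 16.99, 12.1, 20.9, and 14.8 in WT, 61.8-fold less by pooled counts (95% counting interval 11.1 to 2440). HsOr257.3 had 0, 0.787, and 1.80 in mutants, against 41.1, 12.1, 64.0, and 39.6 in WT (log2 fold change -5.20 ± 0.84 SE, adjusted p = 0.00045). HsOr257.4 was at 0 in all 3 mutants at D20, against 35.4, 29.1, 83.7, and 56.7 in WT, at least 20.2-fold lower. HsOr258 had 0, 0, and 1.80 in mutants, against 55.2, 40.0, 75.0, and 48.4 in WT (log2 fold change -6.07 ± 1.01 SE, adjusted p = 0.000569, and -9.00 without mutant D20 replicate 3, the only mutant library with reads). All 5 were thus low together, none above 3.49% of WT at D20, and at D25 the highest of them was HsOr257.3 at 5.99% of WT.

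HsOr205 to HsOr208 were called lower at both stages, and stood at 5.50 to 8.40% of WT at D20. HsOr206 and HsOr208 were also called lower at D25 than at D20 in mutants. Their scaffold, HsOr203 to HsOr208, summed to 44.7, 105, and 29.3 in mutants, against 575, 476, 588, and 441 in WT at D20. HsOr207 had 11.45, 19.7, and 7.78 in mutants, against 256, 245, 283, and 160.0 in WT at D20 (log2 fold change -4.21 ± 0.80 SE, adjusted p = 0.00214). At D25 it had 1.92, 0.980, and 0 in mutants, against 295, 84.6, 202, and 229 in WT, 222-fold less by pooled counts (95% counting interval 76.0 to 1077). HsOr208 was at 0 in all mutants at D25, against 148, 78.2, 193, and 80.0 in WT, at least 45.4-fold lower, and its D20 call was lost without mutant D20 replicate 3 (adjusted p = 0.0506). HsOr205 had 6.87, 1.57, and 1.80 in mutants, against 38.2, 46.0, 45.5, and 53.7 in WT at D20 (log2 fold change -3.83 ± 0.61 SE, adjusted p = 0.000551). Their scaffold neighbour HsOr203 was low after D15 in WT as well. HsOr203, chosen after its values were seen, had 1.15, 44.1, and 5.39 in mutants and 4.25, 6.06, 8.61, and 17.7 in WT at D20. The WT D15 libraries had 73.0, 56.2, 53.8, and 15.4, and no step or genotype difference after D15 was called for it.

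HsOr210 to HsOr213 were called lower at D25 only. This run of 4 summed to 144, 179, and 229 in mutants, against 372, 354, 396, and 373 in WT at D20, or 49.3% of WT (38.6% within batch 1 and 54.7% within batch 3). At D25 the sum was 19.2, 6.86, and 8.97 in mutants, against 447, 259, 428, and 407 in WT, or 3.03%. The calls were 0 of 4 at D20 and 4 of 4 at D25, and 0 of 4 were called at D20 with any D20 library left out, while the DESeq2 Wald test and the fit with only the libraries of the contrast each called 1 of 4. At D20 the mutant mean was 61.6% of WT for HsOr210 and 48.1% for HsOr211, but 25.9% for HsOr212 and 27.8% for HsOr213, and the genotypes overlapped in none of the 4. HsOr212, chosen after its values were seen, had 10.3, 12.6, and 6.59 in mutants, against 29.7, 35.1, 52.9, and 34.2 in WT at D20. Between D20 and D25 in mutants a fall was called for HsOr210 and HsOr211 but not for HsOr212 or HsOr213. HsOr210 had 60.7, 75.6, and 91.6 in mutants, against 126, 119.9, 121, and 126 in WT at D20 (log2 fold change -0.73 ± 0.75 SE, adjusted p = 0.751). At D25 it had 10.5, 0.980, and 4.89 in mutants, against 192, 112, 207, and 136 in WT (log2 fold change -4.85 ± 0.95 SE, adjusted p = 0.00159). The fall between these stages in mutants was itself called (log2 fold change -3.74 ± 0.93 SE, adjusted p = 0.0285), but not without mutant D20 replicate 2 or 3 or any mutant D25 library (adjusted p = 0.0609 to 0.141). HsOr211 had 71.0, 85.8, and 122 in mutants, against 204, 184, 193, and 192 in WT at D20 (log2 fold change -1.09 ± 0.84 SE, adjusted p = 0.646). At D25 it had 3.84, 0.980, and 0 in mutants, against 162, 101, 110.3, and 197 in WT (log2 fold change -6.44 ± 1.20 SE, adjusted p = 0.00127), and its fall from D20 in mutants was called (log2 fold change -5.79 ± 1.19 SE, adjusted p = 0.012), but not without mutant D25 replicate 2 (adjusted p = 0.0712) or 3 (adjusted p = 0.061). HsOr213 had 0, 3.92, and 4.08 in mutants, against 21.8, 14.1, 69.0, and 18.9 in WT at D25 (log2 fold change -3.37 ± 0.89 SE, adjusted p = 0.0148), a call lost without mutant D25 replicate 1 (adjusted p = 0.0748) or WT D25 replicate 3 (adjusted p = 0.0521).

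**Figure D4:**
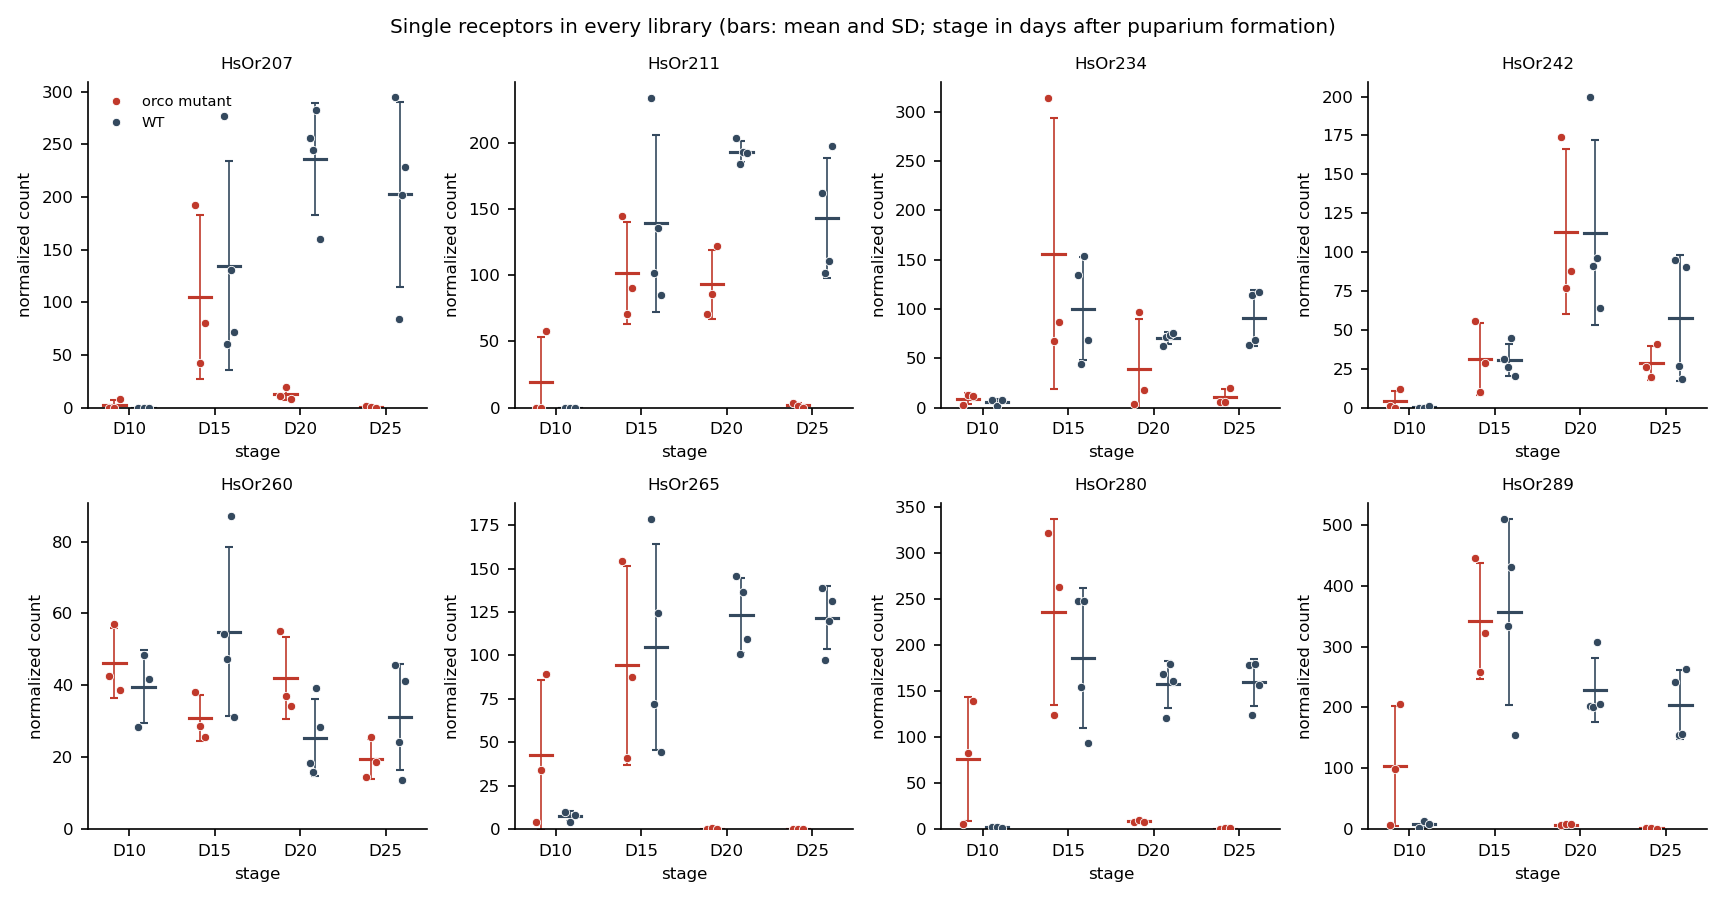
Normalized counts of 8 single members in each library at D10, D15, D20, and D25, with mutant points left of WT points. HsOr207, HsOr265, HsOr280, and HsOr289 are near 0 in mutants at D20, HsOr211 only at D25, HsOr234 varies between the 3 mutant D20 libraries, and HsOr242 and HsOr260 overlap between genotypes at D20.

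HsOr226 to HsOr239, 14 receptors on 1 scaffold, were uneven between mutant libraries at D20. Their sum was 85.9, 499.7, and 168 in mutants, against 926, 860.1, 1294, and 1187 in WT at D20. Mutant replicate 2 thus held several times the level of the other 2, and the mutant mean was 8.37% of WT within batch 1 and 28.1% within batch 3. At D25 the sum was 64.2, 51.0, and 110.1 in mutants, against 1168, 1046, 933, and 1713 in WT, with 5 of 14 called lower at D20 and 14 of 14 at D25. The D20 count was 3 without mutant D20 replicate 1 or 3 and 10 with the DESeq2 Wald test, and the D25 count was 9 without mutant D25 replicate 1. HsOr231 to HsOr236 were a run of 6 called at D25 only, though 2 of 6 were called at D25 without mutant D25 replicate 1 and 3 of 6 without mutant D25 replicate 2. HsOr231 had 5.73, 48.8, and 8.38 in mutants, against 89.19, 60.6, 94.7, and 63.2 in WT at D20 (log2 fold change -1.90 ± 0.65 SE, adjusted p = 0.119). HsOr234 had 3.44, 96.8, and 17.4 in mutants, against 62.3, 71.5, 73.8, and 75.6 in WT (log2 fold change -0.89 ± 0.75 SE, adjusted p = 0.685), and -2.74 without mutant D20 replicate 2. HsOr236 had 2.29, 45.6, and 5.99 in mutants, against 75.0, 49.7, 123, and 184 in WT (log2 fold change -2.60 ± 0.87 SE, adjusted p = 0.106). Mutant replicate 2 was the highest of the 3 in each of these receptors. Without that library 2 of the 6 receptors in this run were called at D20, HsOr231 (log2 fold change -3.43, adjusted p = 0.0062) and HsOr236 (-4.63, adjusted p = 0.0112). At D20 the DESeq2 Wald test called 3 of the 6 and the fit with a batch term 1 of the 6 with all libraries in, so the class of this run is not firm.

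At D25 HsOr234 had 5.75, 5.88, and 19.6 in mutants, against 63.3, 114, 69.0, and 117 in WT (log2 fold change -3.12 ± 0.84 SE, adjusted p = 0.017), a call lost without mutant D25 replicate 1 (adjusted p = 0.0916) or replicate 2 (adjusted p = 0.0811). HsOr236 lost its D25 call without mutant D25 replicate 1 (adjusted p = 0.0524). HsOr238, the early receptor of this scaffold, was called lower at both stages. It had 14.9, 59.0, and 29.9 in mutants, against 184, 144, 189, and 173 in WT at D20 (log2 fold change -2.34 ± 0.49 SE, adjusted p = 0.00395). At D25 it had 6.71, 4.90, and 8.16 in mutants, against 234, 150.01, 175, and 261 in WT (log2 fold change -4.94 ± 0.57 SE, adjusted p = 1.58e-05), and the difference between mutant D25 and D20 was called (log2 fold change -2.34 ± 0.54 SE, adjusted p = 0.0182), but not without mutant D20 replicate 2 or any mutant D25 library (adjusted p = 0.0589 to 0.126).

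Members not called lower in mutants at either stage were HsOr203, HsOr204, HsOr209, HsOr216, HsOr217, HsOr218, HsOr220, HsOr222, HsOr223, HsOr242, HsOr260, and HsOr262. HsOr242 had 174, 77.13, and 88.0 in mutants and 199.6, 90.9, 96.0, and 63.8 in WT at D20 (log2 fold change -0.01 ± 0.67 SE, adjusted p = 0.998). At D25 it had 25.9, 19.6, and 40.8 in mutants and 95.01, 26.9, 18.4, and 90.3 in WT (log2 fold change -1.04 ± 0.71 SE, adjusted p = 0.3). The genotypes overlapped at both stages, and the sign of the D20 difference, which was near 0, depended on the scaling. HsOr209 had 89.3, 49.6, and 79.6 in mutants and 35.4, 38.8, 35.7, and 23.6 in WT at D20 (log2 fold change 1.10 ± 0.85 SE, adjusted p = 0.646). Every mutant library was above every WT library here, but the difference was not called. At D25 HsOr209 had 18.2, 4.90, and 6.53 in mutants and 103, 20.5, 55.2, and 25.4 in WT (log2 fold change -2.35 ± 0.96 SE, adjusted p = 0.0932).

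HsOr260 and HsOr223 were the only tested members called in none of the comparisons made here, and HsOr260 was on at all 4 stages in both genotypes. The mutant D10 libraries had 42.6, 57.2, and 38.8, the D15 libraries 38.0, 28.8, and 25.7, the D20 libraries 55.0, 37.0, and 34.1, and the D25 libraries 14.4, 25.5, and 18.8. The WT D10 libraries had 28.5, 48.5, and 41.8, the D15 libraries 54.1, 47.3, 87.1, and 31.1, the D20 libraries 18.4, 15.7, 39.4, and 28.3, and the D25 libraries 45.5, 24.4, 13.8, and 41.1. The difference between genotypes was log2 fold change 0.70 ± 0.40 (SE), adjusted p = 0.481 at D20 and log2 fold change -0.72 ± 0.42 (SE), adjusted p = 0.225 at D25. HsOr262 on the same scaffold, chosen after its values were seen, had 3.44, 36.2, and 32.3 in mutants and 14.2, 4.85, 18.5, and 17.7 in WT at D20, and its fall between D25 and D20 in mutants was called (log2 fold change -3.21 ± 0.86 SE, adjusted p = 0.0406), but not without mutant D20 replicate 2 or 3 or any mutant D25 library (adjusted p = 0.129 to 0.166). Their scaffold, HsOr260 to HsOr262, stood at 147% of WT in mutants at D20 and 46.3% at D25.

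Among the members not called at D25, the others of the 8 with the highest WT means had lower mutant means that did not pass the test. Their reads were few in several WT D25 libraries, as in HsOr216 with 7, 6, 10, and 34 counts. The log2 fold change was -1.84 for HsOr216 (adjusted p = 0.0622), -1.63 for HsOr217 (adjusted p = 0.134), -2.15 for HsOr218 (adjusted p = 0.0521), -1.99 for HsOr220 (adjusted p = 0.104), and -2.44 for HsOr222 (adjusted p = 0.0508). A p that misses the threshold does not show that they were kept. Along the rest of the lower numbers, the mutant sum was 60.7% of WT at D20 and 28.5% at D25 for HsOr220 to HsOr223, 74.3% and 26.96% for HsOr240 to HsOr242, and 26.8% and 11.9% for HsOr243 to HsOr245, at the same 2 stages. As sums, these rows thus stood at a higher share of WT at D20 than at D25, and 5 of their 9 tested members were called lower at D25. Single members differed from their row. HsOr223 stood at 31.4% of WT at D20 and 113% at D25. At D20 HsOr242 stood at 100% of WT, but HsOr240 at 21.1% and HsOr241, already called lower, at 5.56%. The 7 members not tested, HsOr214, HsOr215, HsOr225, HsOr243, HsOr255, HsOr261, and HsOr272, had mean counts under 10, and their loss was not tested.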

How the data were processed

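Antennal polyA RNA was extracted by the authors with TRIzol, made into libraries with an unstranded NEBNext Ultra II kit, and sequenced in 3 batches. Per the submitters' processing notes and the study's methods, the authors mapped reads with STAR 2.6.1d and deposited raw counts per gene (multimapping reads not included), trimming the batch with longer reads during mapping. The deposited counts were used, with 0 columns left unmatched. The deposited table of normalized signal, made by the authors with DESeq2 1.34.0, was not used. The lines of unmapped (2.86 to 33.2% of reads), multimapping (0.900 to 3.24%), no-gene (6.34 to 20.1%), and ambiguous reads (1.36 to 4.13%) stayed out of library sizes.

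Counts were divided by DESeq2 1.42.0 size factors for display. Tests used edgeR 4.0.16 (R 4.3.3, TMM, quasi-likelihood) in 1 model of 8 groups and 27 libraries, over the 11086 genes that averaged 10 or more counts, two-sided, with Benjamini-Hochberg adjustment per contrast and calls at an adjusted p under 0.05. SE was the log2 fold change divided by the square root of F. Counting intervals are exact Poisson, 95%. The steps were tested on simulated data for the genotype contrasts at D20 and D25 only, with large changes in well-counted genes. Members near 0 and the other comparisons were not covered. Alternatives were other scalings, filters, DESeq2, a batch term, a replicate block, only the libraries of a contrast, leaving out each library, and, chosen after seeing the data, leaving out batch 2.

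The members and lists were chosen with earlier results of these data known. Named members were, by rule, the 4 called with the highest level per comparison and direction, up to 8 per late stage not called lower, the ends and the 2 highest of each run, and the copies of HsOr257 with HsOr258. Members listed only to complete a class were named for that class. Scaffolds came from the study's receptor list. No gene sequence or length was used here.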

Additional observations from a re-analysis of the deposited data

Results flagged for a closer look

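In 12 of 207 sets of 4 WT libraries, 1 library lay far from the other 3 by Dixon's criterion, and chance alone flags about 1 in 20. HsOr213 had 69.0 normalized counts in WT D25 replicate 3, against 14.1 to 21.8 in the others. HsOr220 had 97.2 in WT D15 replicate 2, against 17.2 to 30.7. HsOr229 had 146 in WT D20 replicate 3, against 86.4 to 93.3. HsOr235 had 102 in WT D25 replicate 4, against 37.6 to 47.4. HsOr250 had 193 in WT D25 replicate 3, against 117 to 124. HsOr289 had 308 in WT D20 replicate 3, against 201 to 205. Low libraries were WT D20 replicate 2 for HsOr266 (75.1, against 102 to 106) and HsOr275 (103, against 144 to 146), and WT D15 replicate 4 for HsOr292 (92.1, against 188 to 206). Among summed levels, HsOr220 to HsOr223 had 188 in WT D25 replicate 4, against 73.6 to 89.07, HsOr240 to HsOr242 had 283 in WT D20 replicate 1, against 109 to 133, and HsOr264 to HsOr272 had 439 in WT D20 replicate 2, against 600 to 626. No mutant group had the 4 libraries this criterion needs.

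The step between D20 and D15 differed between the genotypes by a test of the interaction for 53 of 90 members, all with the lower change in mutants.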

How the results depend on the processing

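Counts of called members kept to within 1.5 times of 60 lower at D20, 77 lower at D25, 80 higher at WT D15 against D10, 62 lower at mutant D20 against D15, and 53 for the interaction under every alternative run. With each library left out in turn they were 52 to 59, 70 to 80, 75 to 81, 56 to 65, and 40 to 55. The 11 higher at D10 became 4 with DESeq2 size factors, with no filter, and with filterByExpr, 34 with the DESeq2 Wald test, 2 with the replicate block, and 0 with a batch term, with only the libraries of the contrast, and without batch 2, and 0 to 36 with 1 library left out. The 0 at WT D20 against D15 became 6 with library size only, 3 with DESeq2, 2 with a batch term, 1 without batch 2, and 0 to 2 with 1 library left out. The 24 at mutant D15 against D10 became 43 with DESeq2, 57 with a batch term, 0 with only the libraries of the contrast, and 4 to 55 with 1 library left out. The 12 at mutant D25 against D20 became 49 with library size only, 19 with a batch term, 4 with only the libraries of the contrast, and 2 to 10 with 1 library left out, and it was 2 without mutant D25 replicate 2 or 3. The counts of 0 at D15 between genotypes and at WT D25 against D20 stayed 0 under every alternative run. The cause of these shifts was not tested.

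Of 83 results on single members, 66 were called. None of the 66 reversed, 6 lost the call under another setting, and 9 with a library left out. HsOr242 at D20, not called (-0.01), reversed to 0.0077 with DESeq2 size factors, 0.021 with library size only, 0.0078 with the DESeq2 Wald test, 0.11 with a batch term, 0.019 with only the libraries of the contrast, and 0.020 without batch 2, and lay between -0.50 and 0.42 with a library left out. Scaling by library size only moved the median of all genes by -0.63 between genotypes at D25 and by -0.79 at mutant D25 against D20.

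Same-numbered libraries did not deviate together (correlations of -0.41 to 0.50), so the labels' numbers were not taken as pairs. Mutant and WT libraries of the same batch gave -0.16 to 0.12 at D10 and 0.18 and 0.65 at D15. At D20 they gave 0.0079 to 0.59 and at D25 -0.17 to 0.25, and the main fit held no batch term. With the replicate block the calls were 59 at D20 and 78 at D25. At D10, where mutant replicates 2 and 3 were the shallowest libraries, a floor of 3 counts stood at 7.20 normalized counts in mutants, against 2.08 in WT.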
